A study of Homo sapiens with 8 samples.

Results

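The amino acid transporters listed here belong to the solute carrier families SLC1, SLC3, SLC6, SLC7, SLC16, SLC36, SLC38 and SLC43. Most carry amino acids across the cell surface or the lysosomal membrane, and those of SLC3 are partner proteins of such carriers. The list does not cover every amino acid transporter of these families. The list held 33 genes. They were found on the array as transcript clusters, the sets of probes that cover 1 gene, whose annotation gave a single symbol from the list, and a gene with several such clusters was represented by the one with the highest mean over the 8 arrays. In this way 32 of the 33 genes were measured, among 18417 genes with a cluster of their own and 33297 transcript clusters in all. SLC43A3, a relative of the branched-chain amino acid transporters that is known to carry purine nucleobases, had no cluster of its own and is not reported. Of the 32 genes 31 had 1 cluster, and only SLC1A5 had 2.

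The cells were 786-O, a human renal cell carcinoma (RCC) line without functional VHL. VHL+ cells carried a VHL overexpression vector as stable transfectants, VHL- cells were labelled as not transfected, and both were kept for 24 h under hypoxia (1% O2) or normoxia. Each of the 4 groups (VHL+ under hypoxia, VHL+ under normoxia, VHL- under hypoxia, VHL- under normoxia) had 2 arrays of biological replicates, so the groups differ in the vector and its selection as well as in VHL, and these cannot be told apart. Total RNA had been hybridized to Human Gene 1.0 ST arrays, and all values below are the deposited log2 signals.

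Some facts of the arrays bear on every value. VHL itself had log2 signals between 8.85 and 9.16 in VHL+ cells and between 8.23 and 8.51 in VHL- cells, so the groups did not overlap. HIF1A differed between the cell types too and was lower with VHL under normoxia (-1.95 on the log2 scale, SE 0.14, limma adjusted p = 4.82e-08) and under hypoxia (-2.02, SE 0.14, limma adjusted p = 4.56e-08). EPAS1, the gene of HIF2α, was lower with VHL under normoxia (-0.77, SE 0.18, limma adjusted p = 0.0146). Under hypoxia EPAS1 had -0.34 and did not pass (SE 0.18, limma adjusted p = 0.252). These are RNA signals, and HIF protein was not measured on the arrays. Of 10 renal markers, PAX8, PAX2, VIM, KRT8 and KRT18 were above the array's median on all 8 arrays, whereas the proximal tubule genes AQP1, LRP2 and CUBN were below it on all 8. Of 9 markers of other cell types, 6 were below the median on all arrays, among them PTPRC, PECAM1 and ALB, and 2, CD68 and DES, were above it on all 8. The medians of the arrays lay between 6.60 and 6.91, which moves each comparison as a whole. The median log2 fold change of all clusters was 0.16 for VHL+ vs VHL- cells under hypoxia, -0.04 under normoxia, 0.09 for hypoxia in VHL+ cells and -0.12 for hypoxia in VHL- cells. It was 0.21 for the difference of the hypoxia effects, 0.06 for VHL with oxygen as covariate and -0.02 for hypoxia with VHL status as covariate. The calls of the transporter genes are therefore also given after quantile normalization, which removes these shifts, and those of the other gene lists as counts. Quantile normalization also left the limma fit with a mean per group fewer prior degrees of freedom (2.82 instead of 14.0). A call lost after it therefore cannot be put down to the shifts alone. The pairwise comparisons share arrays with one another, so they do not support each other.

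Amino acids are charged or polar and cross membranes only through carriers. The exchangers of the SLC7 family swap one amino acid for another and reach the cell surface as light chains bound to a heavy chain of the SLC3 family. The sodium-coupled carriers of the SLC1, SLC6 and SLC38 families concentrate amino acids in the cell, and some of the SLC36 carriers use protons. The kidney is known for reabsorbing amino acids in the proximal tubule, and tumour cells are known for high uptake of glutamine, leucine and cystine. Cells short of amino acids turn on transporter genes through the transcription factor ATF4, and cells short of oxygen do so for some of them through the hypoxia-inducible factors (HIF), which VHL marks for degradation. In this list, the RNA signals of 9 genes passed the test in at least 1 of 7 comparisons, and 23 genes passed in none.

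**Figure D1:**
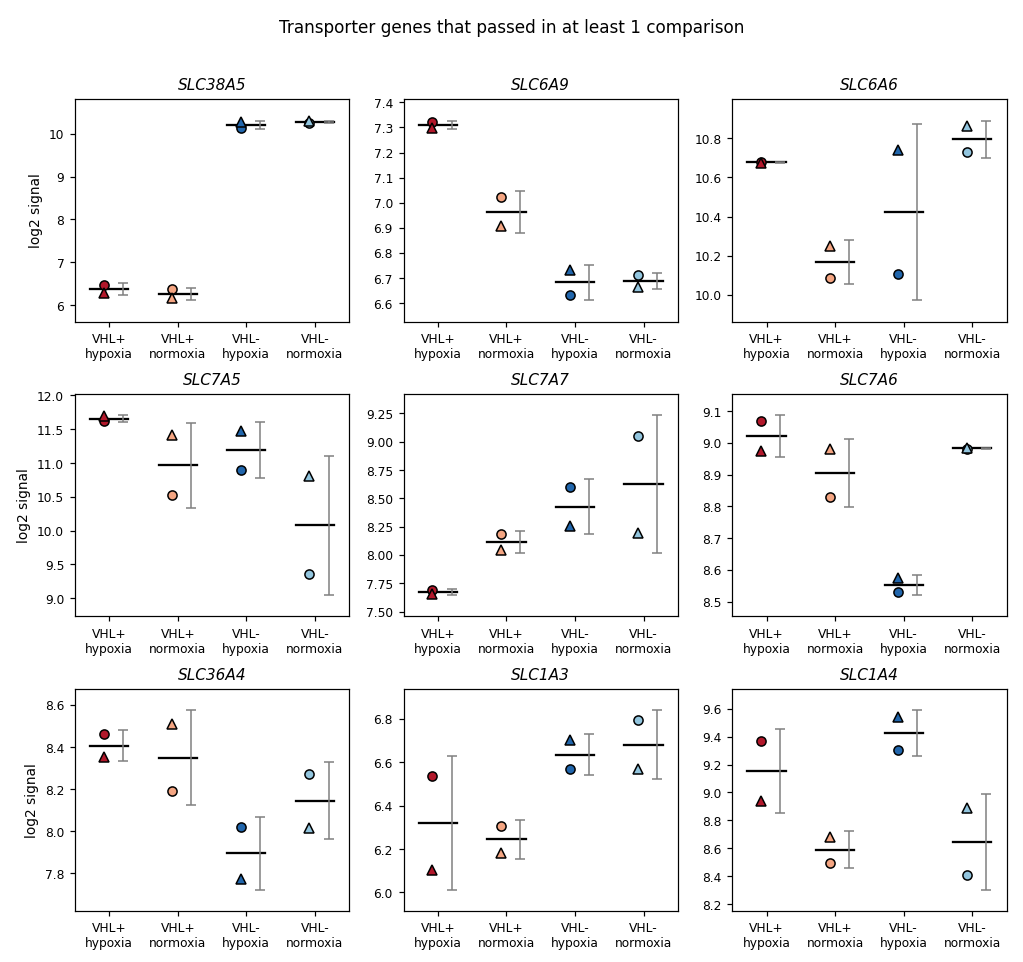
Log2 signal (vertical axis, a separate range for each gene) of the 9 transporter genes that passed in at least 1 of 7 comparisons, on each array of the 4 groups. Circles are replicate 1, triangles replicate 2, black lines the mean and grey bars the SD (n = 2). SLC38A5 lies between 6.16 and 6.47 on the VHL+ arrays and between 10.15 and 10.30 on the VHL- arrays, and each of the other 8 genes spans a smaller range over the 8 arrays.

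The sodium-coupled carrier genes of the SLC38 family held the largest difference of the list. SLC38A5 encodes SNAT5, a carrier of system N that moves glutamine, asparagine, histidine and small neutral amino acids together with sodium in exchange for protons. Under normoxia its log2 signal was 6.37 and 6.16 in VHL+ cells, against 10.25 and 10.30 in VHL- cells. Under hypoxia it was 6.47 and 6.27 in VHL+ cells, against 10.15 and 10.28 in VHL- cells. Replicates thus differed by at most 0.21, and the signal in VHL+ cells was below the median of its array on all 4 arrays. With VHL, SLC38A5 was 16.1-fold lower under normoxia (-4.01 on the log2 scale, SE 0.14, limma adjusted p = 2.91e-12) and 14.3-fold lower under hypoxia (-3.84, SE 0.14, limma adjusted p = 9.73e-12). The files used here hold no background measure, so these folds are ratios of measured signals, and with so dim a signal in VHL+ cells the difference in RNA may be larger. Whether fewer cells expressed the gene or each cell held less of its RNA cannot be told apart in such bulk samples. Oxygen moved the signal by 0.11 in VHL+ cells and by -0.06 in VHL- cells, and neither passed. The call was kept after quantile normalization (adjusted p = 3.65e-05 under normoxia and 5.54e-05 under hypoxia) and without any single array (adjusted p at most 2.95e-05 and 0.000208).

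The promoter of SLC38A5 is shown because no other member differed as much between the cell types. It is the stretch of 250 bases before the annotated start in RefSeq (GRCh38.p14, chrX:48470261-48470510, minus strand), with the HIF core motifs ACGTG and GCGTG of either strand in capitals.
SLC38A5 promoter: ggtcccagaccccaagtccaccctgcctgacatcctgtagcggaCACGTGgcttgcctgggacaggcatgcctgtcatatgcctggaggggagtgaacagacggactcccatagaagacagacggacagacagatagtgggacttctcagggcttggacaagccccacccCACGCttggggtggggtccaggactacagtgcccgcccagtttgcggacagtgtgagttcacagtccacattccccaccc
The capitals CACGTG are ACGTG read on both strands, from base -206 to -201, and CACGC is GCGTG on the opposite strand, from base -80 to -76. Such short motifs are common. ACGTG was present in 33.3% of the 48 promoter windows of 27 members (250 bases before to 50 after the start), against 21.4% of the windows of all genes, and GCGTG in 54.2% against 36.5%. A match is a description of the letters, and binding was not measured.

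The other 9 SLC38 genes passed in none of the comparisons. SLC38A1 and SLC38A2 encode SNAT1 and SNAT2, the system A carriers of small neutral amino acids in many cells, and had log2 fold changes with VHL of -0.01 and -0.04 with oxygen as covariate. SLC38A9, the lysosomal arginine sensor of mTORC1, had 0.14 and SLC38A7, a lysosomal glutamine carrier, had 0.14 too. SLC38A6 and SLC38A10 had 0.20 and 0.09, and the dim genes SLC38A3, SLC38A4 and SLC38A11, all below the array's median on all 8 arrays, had 0.06, 0.08 and -0.14. Among the 10 genes of this family, SLC38A5 was the only one that passed in any of the 7 comparisons.

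Over the list, VHL status under normoxia left 0 of 32 genes higher and 2 lower in VHL+ cells, where 2.07% of all clusters were higher and 2.69% lower. Under hypoxia 3 were higher and 2 lower, where 10.3% of all clusters were higher and 1.31% lower. With oxygen as covariate in a fit with both factors, 3 were higher and 3 lower, where 10.6% of all clusters were higher and 3.72% lower. In the deposited values the higher calls of the list were thus no larger a share than those of all clusters. The lower calls there, 6.25% under normoxia, 6.25% under hypoxia and 9.38% with oxygen as covariate, were a larger share that rests on 2 or 3 genes. The median log2 fold change of the 32 genes was 0.13 under hypoxia and -0.08 under normoxia, near the medians of all clusters. After quantile normalization the list had 1 higher and 1 lower gene under hypoxia, where 920 of all 33297 clusters were higher and 911 lower. Under normoxia it had 0 and 1, where 899 clusters were higher and 906 lower. With oxygen as covariate it had 1 and 3, where 2798 clusters were higher and 2530 lower. The larger share of lower calls is therefore stated for the deposited values only.

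The sodium- and chloride-coupled carriers of the SLC6 family held a gene that rose with VHL and a gene that fell. SLC6A9 encodes GlyT1, which takes up glycine. Its log2 signal was 7.32 and 7.30 in VHL+ cells under hypoxia, 7.02 and 6.91 in VHL+ cells under normoxia, 6.63 and 6.73 in VHL- cells under hypoxia and 6.71 and 6.67 in VHL- cells under normoxia. All 4 arrays of VHL+ cells were above all 4 of VHL- cells. The signals of VHL- cells lay near the median of their array, and SLC6A9 was below that median on 2 of the 8 arrays. SLC6A9 rose with VHL by 0.45 on the log2 scale with oxygen as covariate (SE 0.11, limma adjusted p = 0.00347), a 1.37-fold difference, and this call was kept after quantile normalization (adjusted p = 0.00356) and without any single array (adjusted p at most 0.0361). Under hypoxia alone the rise was 0.63 (SE 0.13, limma adjusted p = 0.00454, after quantile normalization 0.0366), and it was not kept without replicate 1 or 2 of VHL+ hypoxia (adjusted p = 0.0804 and 0.0552).

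SLC6A6 encodes TauT, the carrier of taurine, which cells use to hold their volume. Its log2 signal was 10.09 and 10.25 in VHL+ cells, against 10.73 and 10.86 in VHL- cells, under normoxia, and 10.68 on both arrays of VHL+ cells, against 10.11 and 10.74 in VHL- cells, under hypoxia. The groups were apart under normoxia and overlapped under hypoxia, where the replicates of VHL- cells differed by 0.63. SLC6A6 fell with VHL by 0.63 under normoxia (SE 0.17, limma adjusted p = 0.0401). This call was not kept after quantile normalization (adjusted p = 0.0566) or without replicate 1 of VHL+ normoxia (0.0944), replicate 2 of VHL- normoxia (0.146) or either array of VHL+ hypoxia (0.225 each).

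The light chains of the SLC7 family include the exchangers y+LAT1 and y+LAT2, which release arginine and lysine in exchange for neutral amino acids. SLC7A7 (y+LAT1), the gene mutated in lysinuric protein intolerance, had log2 signals of 7.69 and 7.66 in VHL+ cells, against 8.60 and 8.26 in VHL- cells, under hypoxia. Under normoxia it had 8.18 and 8.04 in VHL+ cells, against 9.05 and 8.19 in VHL- cells. The VHL+ arrays were below the VHL- arrays in each condition, narrowly so under normoxia. SLC7A7 fell with VHL by 0.63 on the log2 scale with oxygen as covariate (SE 0.14, limma adjusted p = 0.00172) and by 0.75 under hypoxia (SE 0.20, limma adjusted p = 0.0207). Neither passed after quantile normalization (adjusted p = 0.0545 and 0.128). The call with oxygen as covariate was not kept without replicate 1 of VHL+ hypoxia (adjusted p = 0.112), and the call under hypoxia not without replicate 1 or 2 of VHL+ hypoxia or replicate 1 of VHL- hypoxia (0.336, 0.173 and 0.0552).

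SLC7A6 (y+LAT2), the exchanger of the same kind found in most tissues, had log2 signals of 9.07 and 8.98 in VHL+ cells, against 8.53 and 8.58 in VHL- cells, under hypoxia. Under normoxia the signals were 8.83 and 8.98 in VHL+ cells and 8.98 on both arrays of VHL- cells. The groups were apart under hypoxia only. SLC7A6 rose with VHL under hypoxia by 0.47 (SE 0.13, limma adjusted p = 0.0275), of which 0.16 is the median of all clusters, and after quantile normalization it had 0.20 and did not pass (adjusted p = 0.204). The call was also not kept without either array of VHL+ hypoxia (adjusted p = 0.176 and 0.0839), of VHL- hypoxia (0.162 and 0.0593) or of VHL- normoxia (0.0552 each). The difference of its hypoxia effects between VHL+ and VHL- cells was 0.55 and did not pass (adjusted p = 0.651).

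SLC36A4 encodes PAT4, a carrier of proline and tryptophan. Its log2 signal was 8.46 and 8.35 in VHL+ cells, against 8.02 and 7.77 in VHL- cells, under hypoxia, and 8.19 and 8.51 in VHL+ cells, against 8.27 and 8.02 in VHL- cells, under normoxia. The groups were apart under hypoxia and overlapped under normoxia. It rose with VHL by 0.51 under hypoxia (SE 0.15, limma adjusted p = 0.0360) and by 0.36 with oxygen as covariate (SE 0.11, limma adjusted p = 0.0335), and after quantile normalization the adjusted p were 0.484 and 0.211. The call under hypoxia was not kept without replicate 1 or 2 of VHL+ hypoxia or replicate 2 of VHL- hypoxia (adjusted p = 0.333, 0.130 and 0.170), and the call with oxygen as covariate not without 5 of the 8 arrays (adjusted p up to 0.227, without replicate 2 of VHL- hypoxia; the others are replicates 1 and 2 of VHL+ hypoxia and replicate 2 of VHL+ normoxia and of VHL- normoxia). Both other SLC36 genes, SLC36A1 (PAT1, which exports amino acids from lysosomes) and SLC36A2 (PAT2), had 0.12 and 0.08 with oxygen as covariate and did not pass.

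SLC1A3 encodes EAAT1, which takes up glutamate and aspartate, and was below the array's median on 7 of 8 arrays. Its log2 signal was 6.54 and 6.10 in VHL+ cells, against 6.57 and 6.70 in VHL- cells, under hypoxia, and 6.31 and 6.18 in VHL+ cells, against 6.79 and 6.57 in VHL- cells, under normoxia. All 4 VHL+ arrays were below all 4 VHL- arrays. SLC1A3 fell with VHL by 0.38 with oxygen as covariate (SE 0.11, limma adjusted p = 0.0222, after quantile normalization 0.00646). The call was not kept without replicate 2 of VHL+ hypoxia (adjusted p = 0.142), of VHL+ normoxia (0.111) or of VHL- hypoxia (0.0681), or without replicate 1 of VHL- normoxia (0.0918). SLC1A5, the glutamine exchanger ASCT2, had -0.29 with oxygen as covariate (adjusted p = 0.115) and passed after quantile normalization only, with -0.42 (adjusted p = 0.0381). Its second and dimmer cluster had -0.09.

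SLC7A5 encodes LAT1, the exchanger that brings in leucine and other large neutral amino acids and is known as a target of HIF2α in VHL-deficient renal carcinoma cells. Its log2 signal was 11.62 and 11.69 in VHL+ cells under hypoxia, 10.53 and 11.41 in VHL+ cells under normoxia, 10.90 and 11.48 in VHL- cells under hypoxia and 9.35 and 10.80 in VHL- cells under normoxia. The lowest array was replicate 1 of VHL- normoxia, and the replicates of VHL- cells under normoxia differed by 1.45. With oxygen as covariate SLC7A5 rose with VHL by 0.68 (SE 0.21, limma adjusted p = 0.0255), a 1.60-fold difference. The call was not kept after quantile normalization (adjusted p = 0.295), without replicate 1 of VHL- normoxia, where the change was 0.35 (0.122), or without replicate 1 of VHL+ hypoxia (0.323) or of VHL- hypoxia (0.0738). Its heavy chain gene SLC3A2 (4F2hc) had 0.29 and did not pass (adjusted p = 0.192).

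**Figure D2:**
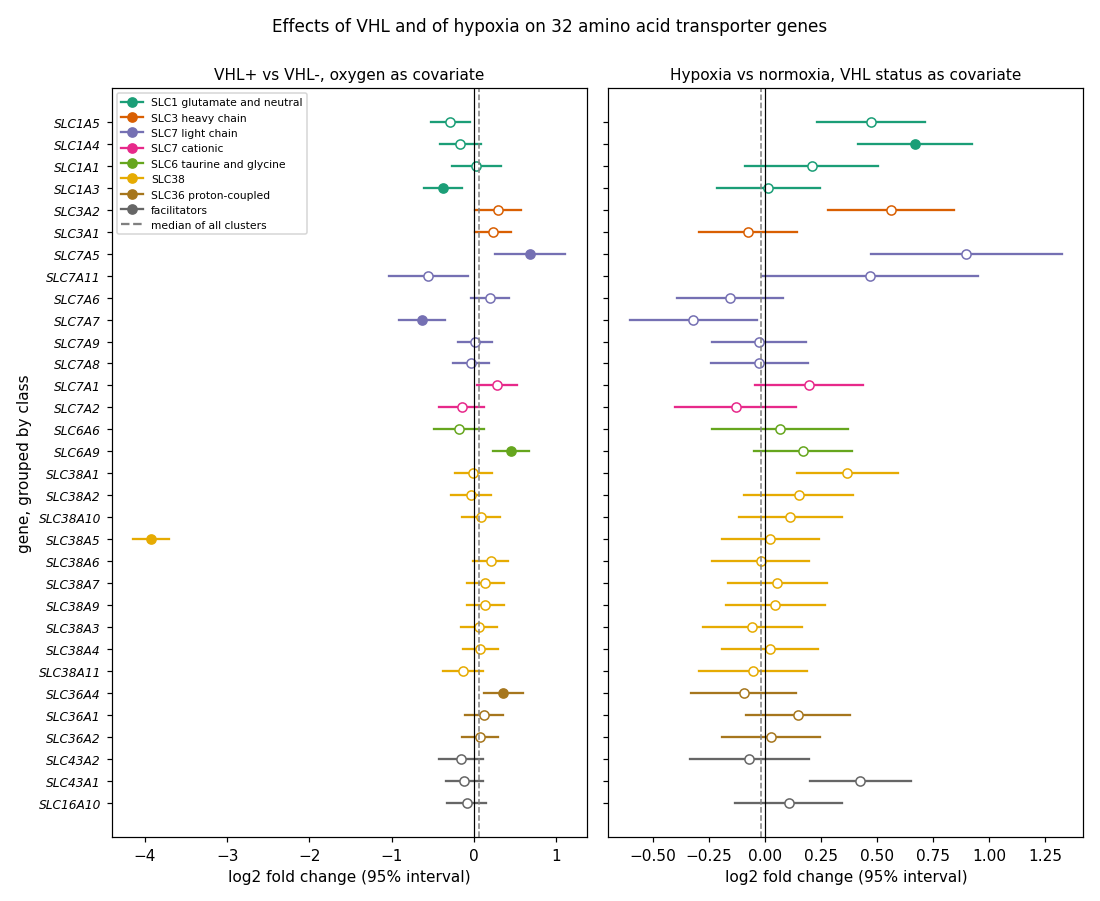
Log2 fold change of the 32 transporter genes (horizontal axis) with its 95% interval, for VHL+ vs VHL- cells with oxygen as covariate (left panel) and for hypoxia vs normoxia with VHL status as covariate (right panel), from a fit over 8 arrays. Filled points passed at an adjusted p under 0.05, open points did not, and the dashed line is the median of all clusters. SLC38A5 at -3.93 stands far left of the other genes in the left panel, and SLC7A5, SLC1A4 and SLC3A2, at 0.90, 0.67 and 0.56, have the highest values in the right panel.

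Hypoxia was the other question of the design. Of the 32 genes, 1 was higher and 0 lower under hypoxia with VHL status as covariate, where 0.111% of all clusters were higher and 0.0601% lower. Within VHL+ cells 0 genes passed, where 0.150% of all clusters were higher and 0.00300% lower, and within VHL- cells 0 passed, where 0.0210% were higher and 0.0450% lower. At an unadjusted p under 0.05, limma gave 10 of 32 genes in VHL+ cells (9 higher, 1 lower), against 6.16% of all clusters, and 7 of 32 in VHL- cells (5 higher, 2 lower), against 5.30%. A one-way test without a prior, run on only the 2 groups compared at the methods' unadjusted threshold, gave 0 genes in VHL+ cells, against 0.363% of all clusters. In VHL- cells it gave 3 (SLC7A6, SLC36A2 and SLC43A2, all lower), against 0.760%. Of these, SLC36A2 was below the array's median on all 8 arrays. Its mean was 6.10 under hypoxia (SD 0.004) and 6.20 under normoxia (SD 0.006), where the median change of all clusters was -0.12. After its p values were adjusted, the one-way test gave 0 in both cell types. This is not the methods' own analysis of variance among the 4 groups.

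SLC1A4 was the gene that passed. It encodes ASCT1, an exchanger of alanine, serine and cysteine. Its log2 signal was 9.37 and 8.94 under hypoxia, against 8.49 and 8.68 under normoxia, in VHL+ cells, and 9.31 and 9.54 under hypoxia, against 8.40 and 8.89 under normoxia, in VHL- cells. The hypoxic arrays were above the normoxic ones in both cell types. SLC1A4 rose by 0.67 under hypoxia with VHL status as covariate (SE 0.12, limma adjusted p = 0.0182), a 1.59-fold difference. After quantile normalization it had 0.64 (adjusted p = 0.231), and the call was not kept without replicate 1 of VHL+ hypoxia (0.61, adjusted p = 0.633).

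**Figure D3:**
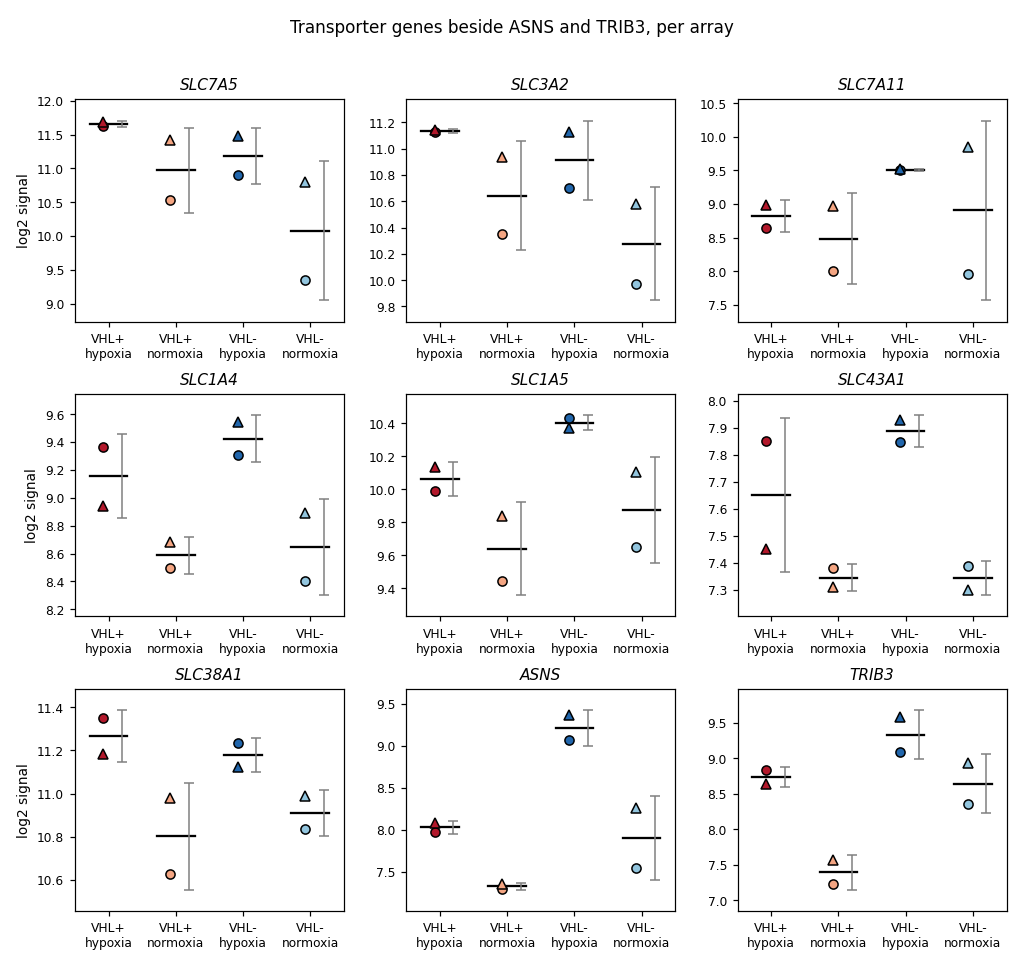
Log2 signal (vertical axis, a separate range for each gene) of 7 transporter genes and of ASNS and TRIB3, known target genes of ATF4, on each array of the 4 groups. Circles are replicate 1, triangles replicate 2, black lines the mean and grey bars the SD (n = 2). In VHL- cells the hypoxic arrays lie above the normoxic arrays for each of the 9 genes but SLC7A11, whose replicate 2 under normoxia has the highest signal, 9.85.

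Several other exchangers had a positive hypoxia value that did not pass with VHL status as covariate. SLC7A5, given per array above, had 0.90 on the log2 scale (SE 0.21, adjusted p = 0.0720), which was 0.69 in VHL+ cells and 1.11 in VHL- cells. Its heavy chain SLC3A2 had signals of 11.12 and 11.14 under hypoxia, against 10.35 and 10.94 under normoxia, in VHL+ cells. In VHL- cells it had 10.70 and 11.12 under hypoxia, against 9.97 and 10.58 under normoxia. The hypoxic arrays of SLC3A2 were above the normoxic ones in both cell types, and the fitted change was 0.56 (SE 0.14, adjusted p = 0.103).

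SLC1A5 (ASCT2) had 9.99 and 10.14 under hypoxia, against 9.44 and 9.84 under normoxia, in VHL+ cells, and 10.43 and 10.37 under hypoxia, against 9.65 and 10.10 under normoxia, in VHL- cells. SLC43A1 (LAT3, a facilitator of branched-chain amino acids) had 7.85 and 7.45 under hypoxia, against 7.38 and 7.31 under normoxia, in VHL+ cells, and 7.85 and 7.93 under hypoxia, against 7.39 and 7.30 under normoxia, in VHL- cells. The hypoxic and normoxic arrays did not overlap for either gene in either cell type, and the log2 fold changes were 0.47 (adjusted p = 0.109) and 0.43 (adjusted p = 0.142). SLC38A1 was apart as well, with 11.35 and 11.18 under hypoxia, against 10.63 and 10.98 under normoxia, in VHL+ cells, and 11.23 and 11.12 under hypoxia, against 10.84 and 10.99 under normoxia, in VHL- cells (0.37, adjusted p = 0.282).

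SLC7A11 encodes xCT, which imports cystine for glutamate and supplies glutathione synthesis. Its signal was 8.65 and 8.99 under hypoxia, against 8.01 and 8.96 under normoxia, in VHL+ cells, and 9.50 and 9.52 under hypoxia, against 7.96 and 9.85 under normoxia, in VHL- cells. The normoxic replicates differed by 0.95 and 1.89, and the groups overlapped in both cell types. Its log2 fold change under hypoxia was 0.33 in VHL+ cells and 0.60 in VHL- cells, and it turned to -0.14 without replicate 1 of VHL+ normoxia and to -0.34 without replicate 1 of VHL- normoxia, so no direction is given for it.

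A gap between replicates of 0.5 or more on the log2 scale was found for 6 of 32 genes in VHL- cells under normoxia (18.8%, against 3.18% of all clusters) and for 4 in VHL+ cells under normoxia (12.5%, against 4.84%). SLC7A5, SLC3A2 and SLC7A11 were among them in both groups, each with replicate 1 the lower. Under hypoxia there were 1 such gene in VHL+ cells (3.12%, against 2.09%) and 5 in VHL- cells (15.6%, against 4.80%). The part of these gaps in the hypoxia values was not tested.

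Counted by overlap, the hypoxic arrays were above both normoxic arrays for 16 of 32 genes in VHL+ cells and below both for 1, SLC7A7. Among all clusters the shares were 28.0% and 2.38%. In VHL- cells they were above for 6, namely SLC1A4, SLC1A5, SLC3A2, SLC7A5, SLC38A1 and SLC43A1, and below for 8, where all clusters gave 2.47% and 45.5%. After quantile normalization, 14 genes were above and 3 below in VHL+ cells (43.8% and 9.38%, against 17.5% and 16.5% of all clusters). In VHL- cells 10 were above and 2 below (31.2% and 6.25%, against 17.4% and 15.5%). The same 6 genes were above in VHL- cells under both scalings, and 5 of them, all but SLC43A1, were above in VHL+ cells under both. The share of all clusters that were above in both cell types, or under both scalings, was not worked out, so these joint counts have no background.

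**Figure D4:**
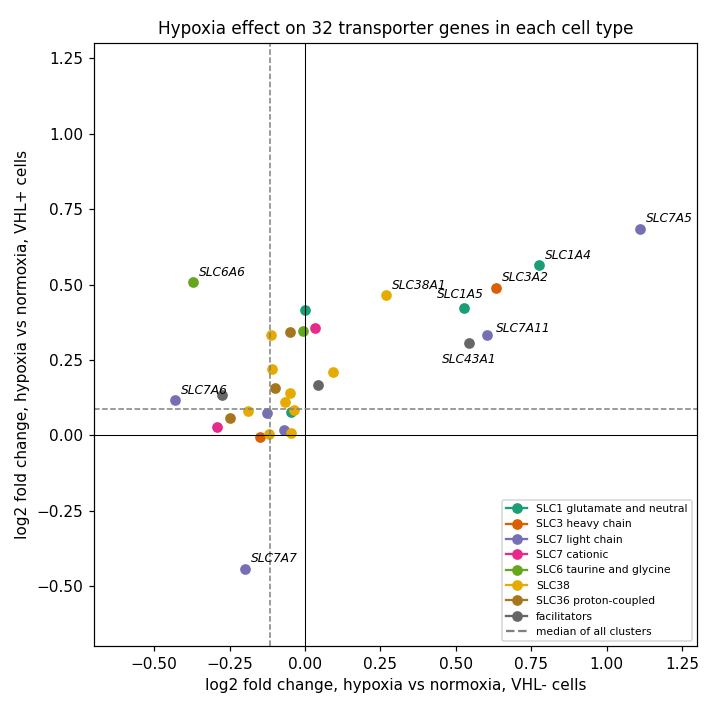
Log2 fold change for hypoxia vs normoxia of the 32 transporter genes in VHL+ cells (vertical axis) against VHL- cells (horizontal axis), coloured by class. Dashed lines are the medians of all clusters, 0.09 in VHL+ cells and -0.12 in VHL- cells. SLC7A5 lies farthest to the upper right, and SLC6A6 has 0.51 in VHL+ cells but -0.37 in VHL- cells.

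The difference of the hypoxia effects of VHL+ and VHL- cells passed for 0 of 32 genes, where 0.00601% of all clusters passed with a positive and 0% with a negative difference. At an unadjusted p under 0.05, limma gave 3 of 32 genes, against 5.61% of all clusters. They were SLC6A6, SLC7A6 and SLC38A10, all with a positive difference, where the median of all clusters was 0.21. SLC6A6 had 0.88, from 0.51 in VHL+ cells and -0.37 in VHL- cells (SE 0.24, adjusted p = 0.651). Its value varied most with which hypoxic array of VHL- cells was kept, as these had 10.11 and 10.74. Without replicate 2 of VHL- hypoxia it was 1.20 (adjusted p = 0.00145), and over all arrays left out in turn it ran from 0.56 to 1.20 with adjusted p up to 0.999.

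The 30-base stretches that hold the amino acid response element core TGATGNAA, to which ATF4 and C/EBP proteins bind, are shown for the 6 members with a match in their promoter windows, since SLC1A4, SLC1A5, SLC3A2 and SLC38A1 are 4 of the 6 genes above normoxia in both cell types. The core, read on either strand, is in capitals (RefSeq, GRCh38.p14).
SLC1A4 (chr2:64989381-64989410, plus strand): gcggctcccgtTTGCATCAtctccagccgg
SLC1A5 (chr19:46784893-46784922, minus strand): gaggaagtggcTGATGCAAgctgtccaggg
SLC3A2 (chr11:62881719-62881748, plus strand): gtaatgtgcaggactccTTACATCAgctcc
SLC38A1 (chr12:46266502-46266531, minus strand): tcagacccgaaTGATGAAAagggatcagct
SLC1A3 (chr5:36596357-36596386, plus strand): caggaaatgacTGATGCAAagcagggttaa
SLC7A1 (chr13:29595663-29595692, minus strand): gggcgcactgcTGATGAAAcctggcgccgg
The core lies before the start in SLC1A3 and SLC1A5, across it in SLC1A4 and SLC38A1, and after it in SLC3A2 and SLC7A1. It was in 12.5% of the 48 member windows, against 3.62% of the windows of all genes, and the antioxidant response element core TGACNNNGC in 14.6% against 13.3%. Of the 27 members with a window, 13 had several. The genes above normoxia were picked from these same arrays, binding was not measured, and a link between the core and the hypoxia values was not tested. SLC7A5 and SLC43A1 had no TGATGNAA core in the window, and SLC7A11 and SLC6A6 had no window in the table. The promoter of SLC7A5, the gene with the largest hypoxia value, is given with its HIF cores in capitals (chr16:87869508-87869757, minus strand).
SLC7A5 promoter: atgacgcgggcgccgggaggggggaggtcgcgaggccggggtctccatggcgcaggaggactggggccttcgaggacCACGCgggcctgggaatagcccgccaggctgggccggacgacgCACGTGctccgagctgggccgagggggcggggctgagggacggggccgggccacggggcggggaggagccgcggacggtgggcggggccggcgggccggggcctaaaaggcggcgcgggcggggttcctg
As in SLC38A5, CACGTG is ACGTG on both strands (bases -130 to -125), and CACGC is GCGTG on the opposite strand (bases -173 to -169). SLC38A5 and SLC7A5 thus share these letters. They are not particular to these genes, since CACGTG was also in windows of SLC1A5, SLC36A1, SLC38A7, SLC43A1, SLC7A7 and SLC7A8. Whether the letters bear on the values of any of these genes was not tested.

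Some regulators of the amino acid response rose under hypoxia as well. Of 16 genes of the GCN2, PERK and ATF4 response, 5 rose under hypoxia with VHL status as covariate and 0 fell, where 0.111% of all clusters were higher and 0.0601% lower. They were ASNS (asparagine synthetase, 1.01, limma adjusted p = 0.000849), NUPR1 (1.23, 0.000849), TRIB3 (1.01, 0.000982), DDIT3 (0.77, 0.0241) and CHAC1 (0.77, 0.0404). After quantile normalization 0 of the 5 passed (adjusted p from 0.136 to 0.394), where 1 of all clusters was higher and 2 were lower. In VHL- cells under normoxia, replicate 1 was below replicate 2 for each of the 5, as for SLC7A5, SLC3A2 and SLC7A11. The 2 signals were 7.24 and 8.40 for CHAC1, 8.05 and 9.01 for NUPR1, 8.35 and 8.94 for TRIB3, and 7.43 and 7.72 for DDIT3. Calls of these genes with each array left out were not worked out. ASNS had log2 signals of 7.97 and 8.08 under hypoxia, against 7.30 and 7.35 under normoxia, in VHL+ cells, and 9.07 and 9.37 under hypoxia, against 7.55 and 8.26 under normoxia, in VHL- cells. The hypoxic arrays were above the normoxic ones in both cell types.

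With VHL (oxygen as covariate), 4 of these 16 regulators fell and 3 rose, where 10.6% of all clusters were higher and 3.72% lower. TRIB3 (-0.92, limma adjusted p = 4.47e-05), ASNS (-0.88, 4.71e-05), CHAC1 (-0.63, 0.00607) and DDIT3 (-0.54, 0.0131) fell, and the kinase genes EIF2AK2 (0.51, 0.00542) and EIF2AK3 (0.37, 0.0266) rose, as did ATF5 (0.38, 0.0315). After quantile normalization 4 were lower and 1 was higher, where 2530 of all 33297 clusters were lower and 2798 higher. Of the 7 only TRIB3 (adjusted p = 0.00198), ASNS (0.0158) and EIF2AK2 (0.0173) still passed, and the other 2 lower genes were EIF2AK1 and PPP1R15A. Of the transporters above, SLC1A4 and SLC1A5 had -0.17 and -0.29 in this comparison and SLC7A5 and SLC3A2 had 0.68 and 0.29.

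Of 33 measured genes of amino acid sensing by mTORC1, 6 rose and 3 fell with VHL (oxygen as covariate), where 10.6% of all clusters were higher and 3.72% lower. After quantile normalization 5 were higher and 5 lower, where 2798 of all 33297 clusters were higher and 2530 lower. DDIT4, an inhibitor of mTORC1 that is known as a HIF target, fell by 2.41 on the log2 scale (limma adjusted p = 1.11e-10), and CASTOR1, the cytosolic arginine sensor, fell by 0.71 (1.66e-05). FNIP2, a partner of folliculin, rose by 0.99 (2.41e-07) and RRAGD, a Rag GTPase, by 0.73 (1.96e-05). All 4 passed after quantile normalization too. Under hypoxia with VHL status as covariate, only DDIT4 of this list passed (1.17, 0.00124, after quantile normalization 0.233).

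Most other amino acid transporters outside the list did not pass. Of 28 measured amino acid transporters of the cell surface and vesicles, 1 rose with VHL (oxygen as covariate). It was SLC6A12, which carries betaine and GABA, with signals of 7.15 and 7.14 in VHL+ cells, against 6.25 and 6.30 in VHL- cells, under hypoxia (0.63 over both conditions, limma adjusted p = 0.000178, after quantile normalization 0.00140). SLC6A13 passed after quantile normalization only (adjusted p = 0.0370). Of 10 mitochondrial carriers 3 rose, where 10.6% of all clusters were higher. They were SLC25A15, the ornithine carrier (0.68, 5.88e-05), SLC25A22, a glutamate carrier (0.45, 0.00527), and SLC25A44, a carrier of branched-chain amino acids (0.37, 0.0255), and SLC25A22 did not pass after quantile normalization (adjusted p = 0.0611). In neither list did a gene pass for hypoxia with VHL status as covariate.

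Some enzymes that use the imported amino acids differed with VHL as well. Of 13 measured genes of branched-chain amino acid breakdown, 5 rose with VHL (oxygen as covariate) and 0 fell, led by BCAT2, the mitochondrial aminotransferase (0.69, limma adjusted p = 0.000176), and MCCC2 (0.62, 0.000425). Of 20 listed genes of glutamine, glutamate, aspartate and proline metabolism, only 12 had a cluster of their own. Among these 12, 3 rose and 0 fell, with GFPT1 (0.66, 0.000107), PPAT (0.76, 0.000110), both of which use glutamine, and GAD1 (0.31, 0.0458). Of 15 genes of arginine and ornithine metabolism, 2 rose and 1 fell. OAT, ornithine aminotransferase, had 0.95 (1.96e-05) and AZIN1 0.61 (0.00229), and ASS1, argininosuccinate synthase, had -0.37 (0.0286). These counts stand beside the 10.6% of all clusters that were higher and the 3.72% that were lower in this comparison. After quantile normalization the branched-chain genes had 4 higher and 0 lower, the glutamine group 3 and 0, and the arginine and ornithine genes 2 and 3. Of all 33297 clusters, 2798 were then higher and 2530 lower.

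The 23 transporter genes that passed in no comparison ran from -0.55 to 0.29 with VHL (oxygen as covariate) and from -0.13 to 0.56 under hypoxia with VHL status as covariate. The genes best known from the proximal tubule, SLC3A1 (rBAT) and its light chain SLC7A9, had 0.23 and 0.01 with VHL and -0.08 and -0.03 with hypoxia. Both were below the array's median on all 8 arrays. Of the carriers of cationic amino acids, SLC7A1 (CAT1) had 0.28 with VHL (adjusted p = 0.128) and SLC7A2 (CAT2) had -0.15. SLC1A1 (EAAT3), which takes up glutamate, aspartate and cysteine, had 0.03, and SLC7A8 (LAT2) had -0.03. Among the facilitators, SLC16A10 (TAT1, for aromatic amino acids), SLC43A1 and SLC43A2 had -0.09, -0.12 and -0.15 with VHL. Over the 32 genes, 20 were above and 7 below the median of their array on all 8 arrays. A p above the threshold does not show that such a gene was alike in the groups, since the number of arrays limits the precision.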

How the data were processed

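The values analysed are the log2 signals per transcript cluster that the authors deposited for 8 arrays (24 h, 2 per group). Per the paper's methods they had been made by RMA in Partek Genomic Suite, whose version is not given in the sources used here. Quantile normalization, which RMA usually includes, is not visible in them, as the array medians differ and 2.24% to 2.61% of the values per array are log2 of a whole number (tolerance 1e-04). Symbols came from the array's annotation, where 19460 clusters had 1 symbol, 1754 several and 12083 none, and none was named from a cluster with several. All 32 members matched a RefSeq gene.

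All 33297 clusters were fitted with limma 3.58.1 in R 4.3.3, once with a mean per group (5 contrasts, 4 residual and 14.0 prior degrees of freedom) and once with VHL and oxygen as factors (2 effects). The p values were adjusted by Benjamini and Hochberg over all clusters, with a threshold of 0.05. Every member was named, with values per array where it passed in at least 1 comparison. Of the other lists, the 2 genes with the smallest p were named, plus those that passed where few did. The members and lists were chosen with earlier results of these data known. The other lists were transporters of the surface and vesicles, mitochondrial carriers, regulators of the ATF4 response, mTORC1 sensing, 3 groups of enzymes, renal markers and markers of other cell types. The fit was tested on simulated data. The alternatives were quantile normalization, median centring, trend and robust estimation, only the groups compared, dim clusters left out, 1 symbol only, mean of a gene's clusters, a one-way test on only the groups compared at the methods' threshold, a minimum change of 2-fold, the replicate number as a block, and each array left out. The block together with quantile normalization was chosen after seeing the data. Promoter sequences are RefSeq's (GRCh38.p14), matched for 27 members.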

Additional observations from a re-analysis of the deposited data

How the results depend on the processing

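Each comparison has 2 arrays a group and the cells cover 1 line, so the spread is read mostly from limma's prior over all clusters. In the fit with a mean per group its prior degrees of freedom, 14.0 with all arrays, fell to 4.14 without either array of VHL+ hypoxia and were infinite, so that all clusters shared 1 spread, without either array of VHL- normoxia and with the replicate block. Calls gained under an infinite prior therefore ignore how far the replicates of a gene such as SLC7A5 lie apart. After quantile normalization the same fit had 2.82 prior degrees of freedom, so its calls were judged with fewer degrees of freedom. The part of this in the calls lost there was not tested.

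SLC38A5 kept its call with VHL under all alternatives in each of 3 comparisons except, after adjustment, the one-way test on only the 2 groups compared (adjusted p = 0.509 under normoxia and 0.359 under hypoxia). That test has no prior and let at most 1 cluster pass, and the methods' own analysis of variance among the 4 groups was not run. SLC7A11 was the only named gene that changed direction. With each array left out in turn, its value for hypoxia ran from -0.14 to 0.81 in VHL+ cells and from -0.34 to 1.55 in VHL- cells, each lowest without replicate 1 of the normoxic group. Of all values of the named genes under the alternatives, 466 kept direction and side of the threshold, 84 no longer passed and 48 came to pass.

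With each array left out in turn, the number of transporter genes that passed ran from 1 to 4 for VHL under normoxia, 1 to 7 for VHL under hypoxia, 3 to 7 for VHL with oxygen as covariate, 0 to 2 for hypoxia in VHL+ cells, 0 to 4 for hypoxia in VHL- cells, 0 to 6 for hypoxia with VHL status as covariate and 0 to 2 for the difference of the hypoxia effects. In the same order, the clusters that passed ran from 473 to 2551, 256 to 5090, 2422 to 6125, 0 to 354, 2 to 282, 0 to 264 and 0 to 203.

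For VHL under normoxia (2 genes, 1587 clusters), 1 gene passed after quantile normalization, after median centring, with only the groups compared (250 clusters), without dim clusters (1038), with a minimum change of 2-fold (368) and by the one-way test (288 clusters, after adjustment 0 genes and 1 cluster). For VHL under hypoxia (5 genes, 3873 clusters), 2 genes passed after quantile normalization (1831 clusters) and after median centring (1423), and 1 gene with a minimum change of 2-fold (505) and by the one-way test (400 clusters, after adjustment 0 genes and 1 cluster). For VHL with oxygen as covariate (6 genes, 4770 clusters), 1 gene and 384 clusters passed with a minimum change of 2-fold.

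For hypoxia in VHL+ cells (0 genes, 51 clusters), 1 gene and 228 clusters passed with only the groups compared, and 1 cluster passed after quantile normalization or median centring, 182 with trend and robust estimation, 8 without dim clusters, 23 with a minimum change of 2-fold and 121 by the one-way test (0 after adjustment). For hypoxia in VHL- cells (0 genes, 22 clusters), 2 genes and 220 clusters passed with trend and robust estimation, 3 genes and 253 clusters by the one-way test (0 clusters after adjustment), and 0 clusters after quantile normalization, after median centring or with only the groups compared. There, 2 clusters passed without dim clusters, 4 with 1 symbol only, 9 as mean of a gene's clusters and 13 with a minimum change of 2-fold. For hypoxia with VHL status as covariate (1 gene, 57 clusters), 0 genes passed after quantile normalization (3 clusters), after median centring (0), without dim clusters (12) and with a minimum change of 2-fold (10), and 2 genes with trend and robust estimation (206). For the difference of the hypoxia effects (0 genes, 2 clusters), 89 clusters passed with trend and robust estimation and 0 after quantile normalization, after median centring, without dim clusters, with 1 symbol only or as mean of a gene's clusters. The causes of these differences were not tested.

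The replicate numbers do not pair the samples by the labels, and the differences of replicate 1 and 2 correlated between groups with r from 0.05 to 0.60 across clusters and from 0.15 to 0.71 across the transporter genes, which are not independent of one another. With the replicate block, 4 genes and 2518 clusters passed for VHL under normoxia, 8 genes for VHL under hypoxia, 2 genes and 336 clusters for hypoxia in VHL+ cells, 4 and 220 in VHL- cells, 6 and 328 for hypoxia with VHL status as covariate, and 1 and 98 for the difference of the hypoxia effects. With the block after quantile normalization, 2640 clusters passed for VHL under normoxia, 1 for hypoxia in VHL+ cells, 0 in VHL- cells, 0 genes and 7 clusters for hypoxia with VHL status as covariate and 0 for the difference.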
